A study of Mus musculus with 6 samples.

Results

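The regions described here are the ATAC-seq peaks of mouse small intestinal crypts that the authors named for an olfactory receptor gene (symbol starting with Olfr) or a vomeronasal receptor gene (Vmn1r or Vmn2r). They were taken by gene name alone from the table of all peaks, and no measured value was used to choose them. There were 843 such receptor peaks among 123510 peaks. A further 61071 peaks carried the name of another gene and 61596 carried no gene name. Of the 843, 614 were named for 465 Olfr genes, 98 for 71 Vmn1r genes and 131 for 62 Vmn2r genes.

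ATAC-seq uses a transposase that cuts and tags open DNA, so the number of reads in a peak measures how accessible that stretch of chromatin was. There were 3 WT and 3 Smarcad1-KO libraries, made from nuclei of whole crypts of mice (C57BL/6 background, males). In the KO, Cre made from the villin promoter, active in intestinal epithelium, removed floxed exons of Smarcad1, a chromatin remodeler. The KO mice derive from 1 targeted line, and non-epithelial cells of a crypt preparation keep the gene. The age of the mice, and whether the WT mice carried floxed alleles, were not given in the sources used here. Whole crypts hold several cell types, so fewer cells with an open site and less opening per cell cannot be told apart. The comparison asks whether loss of Smarcad1 changed accessibility at these receptor genes.

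Olfactory receptors are G protein-coupled receptors of the nose, and each olfactory neuron uses a single receptor gene out of a very large family. Vmn1r and Vmn2r genes encode the 2 families of pheromone receptors of the vomeronasal organ. The genes lie in long tandem clusters on many chromosomes, an Olfr protein is encoded by a single exon, and outside their sensory neurons these genes are mostly silent. Their RNA and their histone marks were not measured in these libraries.

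Sequence is shown for the peaks on which the description turns, all from GRCm38 and read 5′ to 3′. The 6 receptor peaks with a match to the CTCF core consensus (CTCF is the insulator protein that anchors chromatin loops) are compared first, each as 30 bases on the strand of the match, with the match in capitals.

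Olfr750, strongest of all receptor peaks, chr14:51064952-51064981, minus strand: cttgtccttCCAGCAGATGGCgctcccgaa

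Olfr750, a further peak, chr14:51069791-51069820, minus strand: ggaagtgtgCCACTAGGGGGCaggctttgg

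Vmn2r29, chr7:7278497-7278526, minus strand: tctctgtcaCCACCAGGTGGCgacagagag

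Olfr181, chr16:58932833-58932862, minus strand: gagagctgaCCACCAGAGGGCaagagggct

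Vmn1r90, chr7:14536615-14536644, plus strand: tcccagcttCCACTAGGTGGCtcacaacca

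Olfr342, chr2:36523215-36523244, plus strand: ttctctgccCCAGCAGGTGGCtggaatatg

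The only strong receptor peak with an annotated receptor gene start inside it was that of Vmn1r198. Its bases up to that start are shown, with the element TAATTA, which LHX-type homeodomain proteins bind, in capitals.

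Vmn1r198, chr13:22350151-22350363, plus strand: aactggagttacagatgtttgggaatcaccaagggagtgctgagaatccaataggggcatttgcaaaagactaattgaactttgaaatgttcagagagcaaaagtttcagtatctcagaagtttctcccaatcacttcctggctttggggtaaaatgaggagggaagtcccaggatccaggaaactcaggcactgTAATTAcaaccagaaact

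A read that fits several places is dropped by a mapping quality limit. A 200-base stretch of the strong Olfr622 peak, between genes, and the whole 300-base Vmn2r92 peak, in an intron, hold sequence with copies elsewhere. Repeats cover 41.2% of the Olfr622 peak and 97.3% of the Vmn2r92 peak. Whether the copies lie in other receptor genes was not examined. Capitals mark bases covered by 50-base words that occur more than once in the genome, 50 bases being the read length.

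Olfr622, chr7:103644508-103644707, minus strand: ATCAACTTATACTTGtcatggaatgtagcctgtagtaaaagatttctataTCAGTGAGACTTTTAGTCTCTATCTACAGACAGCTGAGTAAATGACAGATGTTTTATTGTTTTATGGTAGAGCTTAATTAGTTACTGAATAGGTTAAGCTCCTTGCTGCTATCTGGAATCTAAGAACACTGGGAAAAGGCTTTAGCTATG

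Vmn2r92, chr17:18171901-18172200, plus strand: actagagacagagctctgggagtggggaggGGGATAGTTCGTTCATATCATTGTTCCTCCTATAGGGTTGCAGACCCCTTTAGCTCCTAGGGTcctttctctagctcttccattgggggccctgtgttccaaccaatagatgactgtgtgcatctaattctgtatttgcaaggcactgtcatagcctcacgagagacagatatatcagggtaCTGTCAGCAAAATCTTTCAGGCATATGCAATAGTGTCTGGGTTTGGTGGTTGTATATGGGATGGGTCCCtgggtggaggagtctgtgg

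The weakest receptor peak lay whole within the coding exon of Olfr821, and none of its 50-base words occurred elsewhere in the genome, so it has no capitals.

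Olfr821, chr10:130034101-130034400, plus strand: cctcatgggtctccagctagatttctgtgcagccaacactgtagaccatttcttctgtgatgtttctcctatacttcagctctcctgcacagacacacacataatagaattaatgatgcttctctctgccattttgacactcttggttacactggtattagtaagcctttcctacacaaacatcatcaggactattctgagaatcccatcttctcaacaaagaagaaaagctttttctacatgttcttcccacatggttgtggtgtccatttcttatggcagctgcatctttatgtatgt

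The libraries held 4339306 to 16301164 reads in peaks, with the fewest in KO3 and the most in WT3. Receptor peaks took 0.254% to 0.324% of these reads, with a median of 10 reads per receptor peak in KO3 and 41 in WT3. Of the crypt markers, 7 of 10 genes (Lgr5, Olfm4, Cdx1, Cdx2, Hnf4a, Krt8 and Lyz1) had a named peak, and 17 of their 19 peaks were strong by the definition given next. Vil1, Epcam and Ascl2 had no peak under their name. Of the olfactory neuron markers, Omp, Cnga2 and Gng13 had no peak and Adcy3, which many cells use, had 3. Immune markers had peaks at 3 of 7 genes, with 1 of 8 strong, and stromal markers at 5 of 5, with 2 of 9 strong. None of these marker peaks was called between KO and WT.

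Receptor peaks were weak. Strength was the mean over the 6 libraries of the deposited log2 normalized reads, and a peak was counted as strong or weak when it fell in the top 25% (at least 6.77) or bottom 25% (at most 5.14) of all peaks. Of the receptor peaks, 25 (2.97%) were strong and 382 (45.3%) were weak. Among peaks named for other genes, 37.7% were strong and 16.3% weak. The contrast was sharper at the extremes, with 4 receptor peaks (0.474%) in the top 10% of all peaks against 17.0% of other named peaks, and 19.1% in the bottom 10% against 6.19%. The median receptor peak had a log2 value of 5.20 and a width of 450 bp, and the median other named peak 6.25 and 900 bp. Per kb of width, 3.08% of receptor peaks were strong and 38.7% weak, so a part of the excess of weak peaks, but little of the lack of strong ones, went with their narrower width.

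The pattern was shared by the 3 families. Strong peaks made up 3.09% of Olfr, 3.06% of Vmn1r and 2.29% of Vmn2r peaks, and weak peaks 43.2%, 50.0% and 51.9%. Peaks without a gene name lay in between, at 12.7% strong and 33.4% weak. Peaks of other large groups of gene names were stronger than receptor peaks. Zinc finger (Zfp) gene peaks were strong in 54.0% of 693 cases, and peaks at predicted (Gm) genes in 33.0% of 2893 cases.

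**Figure D1:**
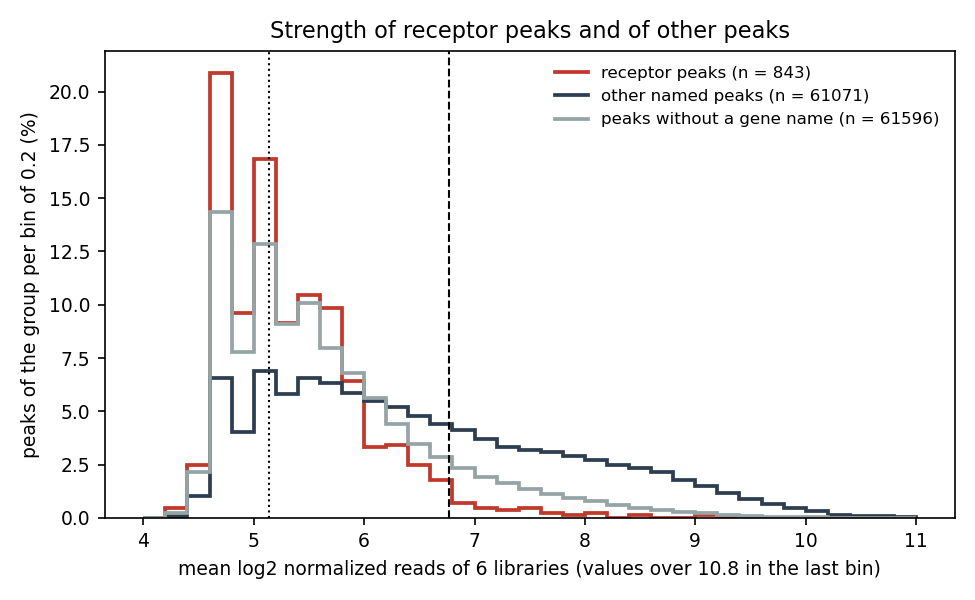
Share of peaks (y axis, % of each group) by mean log2 normalized reads (x axis, bins of 0.2) for receptor peaks, other named peaks and peaks without a gene name. The dotted and dashed lines mark the limits of the bottom and top 25% of all peaks (5.14 and 6.77), and the receptor peaks pile up around and below the dotted line.

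Each library taken alone gave a similar pattern, with a strong share somewhat above the 2.97% found in the mean of the 6 libraries. In the 3 WT libraries 4.39%, 3.08% and 3.80% of receptor peaks were strong, and in the 3 KO libraries 4.15%, 3.91% and 3.80%. Weak receptor peaks made up 44.5%, 48.0% and 45.1% in WT and 42.7%, 47.6% and 46.5% in KO. The groups overlapped in both measures, with 3.76% ± 0.653 (SD, n = 3) strong in WT and 3.95% ± 0.181 in KO, and 45.9% ± 1.91 weak in WT and 45.6% ± 2.56 in KO.

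**Figure D2:**
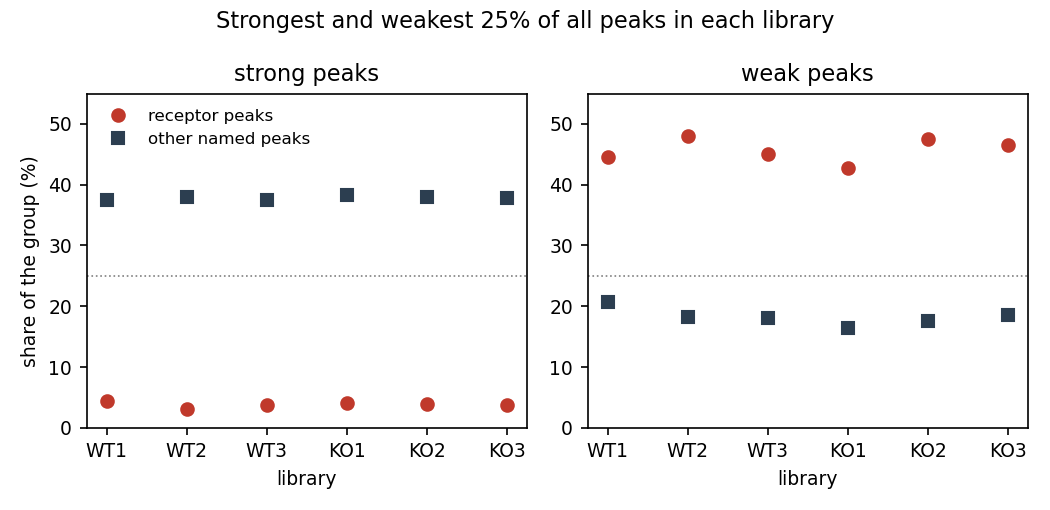
Share (y axis, %) of receptor peaks (circles) and of other named peaks (squares) that lay in the top or bottom 25% of all peaks within each library (x axis). The dotted line is the 25% of all peaks, and WT and KO libraries lie at the same levels.

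The 10 strongest receptor peaks ranged from 7.49 to 9.05 in mean log2. The first lay 4461 bp beyond the 3′ end of Olfr750 by the authors' gene models (ENSMUSG00000035932, peak at chr14:51062851-51065850), between that gene and the start of Rnase12, a ribonuclease gene, 5.19 kb away. Its log2 values were 8.96, 8.72 and 9.34 in WT and 9.06, 8.58 and 9.62 in KO, from 197 to 647 reads. The groups overlapped, and KO minus WT was 0.08 with a standard error of 0.359.

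The next was at Olfr653 (chr7:104580151-104582400) and overlapped the coding exon. Its log2 values were 8.39, 8.16 and 8.89 in WT and 8.36, 7.87 and 9.15 in KO. It lay below the Olfr750 peak in 6 of 6 libraries, although the ranges of the pair over libraries overlapped. The third, 3064 bp beyond the 3′ end of Olfr506 (chr7:108616351-108617400), varied most among these, from 6.96 in KO2 and 7.15 in WT2 to 9.30 in KO3. It was low in both libraries numbered 2, and KO minus WT was -0.02.

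The fourth strongest (chr7:14540401-14542950) was named for Vmn1r90 as an overlap. In the GENCODE annotation used here Vmn1r90 starts 20.6 kb away, and the peak overlaps a gene that is no receptor. Its log2 values were 8.31, 7.03 and 8.24 in WT and 8.18, 7.69 and 8.70 in KO. Olfr56, whose gene body spans other Olfr genes on chromosome 11, had 3 of the 10 strongest peaks, with mean log2 values of 7.88, 7.74 and 7.51. The others were at Olfr288 (chr15:98181001-98181900, 7.61), Olfr622 (chr7:103643101-103645050, 7.49) and Olfr414 (chr1:174432901-174434850, 7.49). None of the 10 passed the test between KO and WT described later, and the differences ran from -0.25 with a standard error of 0.371 to 0.41 with a standard error of 0.378, both at Olfr56.

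The 5 weakest receptor peaks were all 300 bp wide, the smallest width in the table. They lay at Olfr821, Olfr113, Vmn2r111, Vmn2r93 and Olfr610, with mean log2 values from 4.31 to 4.42. The Olfr821 peak printed above had 9, 19 and 38 reads in WT and 11, 19 and 1 in KO, which gave log2 values of 4.14, 5.13 and 5.25 against 4.58, 4.77 and 2.00. The groups overlapped. The difference was -1.06 with a standard error of 0.658, and KO1 and KO2 lay inside the WT range while KO3 held a single read. In the weakest 25% of receptor peaks the mean over libraries had a median of 15.8 reads and the difference between KO and WT a median standard error of 0.371, so small changes were not detectable there.

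Receptor peaks were rarely found at gene starts of other genes. A gene start of any kind lay within 1 kb of 118 receptor peaks (14%) and of 23.4% of other named peaks. Compared at equal strength, in bins of 0.25 of mean log2, other named peaks came to 8.58%. Within 1 kb the receptor peaks therefore had more gene starts than other named peaks of their strength and fewer than other named peaks in general. The starts were those of receptor genes in 90 cases (10.7%), and only 2 receptor peaks lay within 1 kb of the start of a protein-coding gene of another kind, against 4.23% of other named peaks at equal strength. With the start required inside the peak, the shares were 4.03% and 4.27%. Within 2 kb of any gene start they were 26.9% and 11.9%, beside 26.8% of other named peaks in general.

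Most receptor peaks did not overlap the gene they were named for. By the authors' gene models the overlap was 38.7%, against 87.5% of other named peaks at equal strength. The file's words upstream and downstream give the side of the peak on which the gene lies. This was seen against GENCODE, where all 190 receptor peaks labelled upstream that lay outside their annotated gene were beyond its 3′ end and 141 of 142 labelled downstream were before its start. Read in this way, 27% of receptor peaks lay before the start of their gene, at a median of 3124 bp, and 34.3% beyond its end, at a median of 2591 bp. Median log2 strength differed little between peaks over the gene (5.22), before it (5.20) and beyond it (5.18). GENCODE models are longer than the authors', and by them 480 receptor peaks (56.9%) overlapped a receptor gene. Any coding exon was overlapped by 10.2% of other named peaks at equal strength and by 23.0% of other named peaks in general. Receptor coding exons were overlapped by 194 receptor peaks (23.0%). By family these were 177 of 614 Olfr peaks (28.8%), 14 of 98 Vmn1r peaks (14.3%) and 3 of 131 Vmn2r peaks (2.29%), and the difference between families was not tested. Vmn2r genes are long and split into several exons, and 76.3% of Vmn2r peaks overlapped their gene against 33.6% of Olfr peaks.

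Of the strong receptor peaks 3 of 25, those of Olfr433, Olfr622 and Vmn1r198, lay within 1 kb of a receptor start, about the share of all receptor peaks (10.7%). More of them lay near other protein-coding genes, with 9 of 25 (36.0%) within 50 kb of such a start against 15.6% of the receptor peaks that were neither strong nor weak and 10.5% of the weak ones. Their median width was 1650 bp against 300 bp for weak receptor peaks. Strength and width share their reads, so this last contrast is a description of the same quantity.

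In base composition the receptor peaks stood out from their surroundings more than other peaks did. Their median GC content was 47.1%, and that of the 5 kb on each side was 37.2%. In 814 of 843 cases the peak had more GC than its flanks, by 9.66 percentage points on average, against 6.10 at other named peaks of equal strength. The GC content of the peaks themselves was about the same, with a mean of 47.1% against 47.4%. Repeats covered 34.7% of the receptor peaks on average and 24.2% of other named peaks of equal strength, and the median was highest for Vmn2r peaks (43.2%) and lowest for Olfr peaks (20.7%).

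Words of 50 bases that occur more than once in the genome were found in 358 receptor peaks (42.5%), against 19.9% of other named peaks of equal strength in a sample of 6089. They made up 10% or more of the words in 101 receptor peaks (12%) but 50% or more in only 3 (Vmn1r157, Vmn1r159 and Olfr813). Most words of nearly all receptor peaks thus had no exact copy elsewhere. Near copies, which can also lower the mapping quality of a read, were not counted. Among the strong receptor peaks 18 of 25 held such words, and in the Olfr622 peak 655 of 1950 bases were covered by them.

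Each motif was searched on both strands. The CTCF core consensus was found in 6 receptor peaks (0.712%), against 1.95% of other named peaks of equal strength and width and 2.22% of all peaks. Of these 6, 4 were among the 25 strong receptor peaks (16.0%), against 3.02% of strong other named peaks. They were both Olfr750 peaks, Vmn2r29 and Olfr181. Their log2 differences between KO and WT were 0.08, 0.08, -0.10 and -0.10. The Olfr181 peak was the steadiest, with 6.95, 6.88 and 7.26 in WT and 6.96, 6.88 and 6.95 in KO. The groups overlapped in it. The EBF element (CCCNNGGGA, bound by the early B cell factors that also act on olfactory genes) was in 8.30% of receptor peaks against 8.37% at equal strength and width and 13.5% of all peaks. The LHX element (TAATTA) was in 8.07% against 11%, with 15.0% of all peaks. Of the elements of gut factors, that of CDX (CCATAAA) was in 9.25% against 8.19%, with 11.4% of all peaks, and that of HNF4 (CAAAGTCCA) in 1.42% against 1.67%, with 2.64% of all peaks. Among the 25 strong receptor peaks the LHX element was in 11 (44.0%), against 24.7% of strong other named peaks, and the EBF and CDX elements in 5 each (20.0%), against 28.9% and 18.3%. The HNF4 element was in 0 of them, against 5.01%. These shares of strong peaks were not matched for width or GC content. The median GC content was 44.5% in the strong receptor peaks and 47.1% in the weak ones. A match says only that the letters are there.

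Peaks were spread over a minority of the receptor genes. GENCODE vM21 lists 1972 receptor genes including pseudogenes, and 597 of them (30.3%) had a symbol found on a peak, from 33.0% of Olfr to 25.6% of Vmn2r and 22.0% of Vmn1r genes. Of 551 receptor pseudogenes 6 (1.09%) had one, against 591 of 1421 receptor genes not marked as pseudogenes (41.6%). The names on peaks come from the authors' annotation and the list of genes from GENCODE, so the share of pseudogenes may be too low. A peak carries only 1 name, so a peak near a pseudogene may stand under a neighbour. A single peak was found for 424 of the 598 gene names on peaks. The most were 8 for Vmn2r120 (mean log2 from 4.77 to 5.89), and 7 each for Olfr56 (5.20 to 7.88) and Vmn2r7 (4.65 to 5.15).

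Receptor peaks followed the tandem gene clusters. When neighbours under 500 kb apart were joined, the 843 peaks formed 63 clusters on 18 chromosomes, of which 18 held a single peak. The 27 clusters of 10 or more held 744 receptor peaks (88.3%). Chromosome 7 had 208 receptor peaks, chromosome 2 had 188 and chromosome 17 had 99. The 27 clusters covered 33.4 Mb and held 1893 peaks of any kind, or 56.8 per Mb, against 46.5 per Mb over the rest of the genome. Single clusters ran from 30.5 to 94.9 peaks per Mb. These intervals begin and end at a receptor peak and were kept for holding 10 or more. Their density is raised by that choice, so no conclusion is drawn from it. Weak peaks made up 45.2% of the receptor peaks in them and 38.6% of the other peaks.

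The other 1149 peaks inside these clusters differed by name. The 912 without a gene name were strong in 3.84% of cases, close to the 2.69% of the receptor peaks beside them, while the 237 named for other genes were strong in 38.4%, about the share of other named peaks at large.

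**Figure D3:**
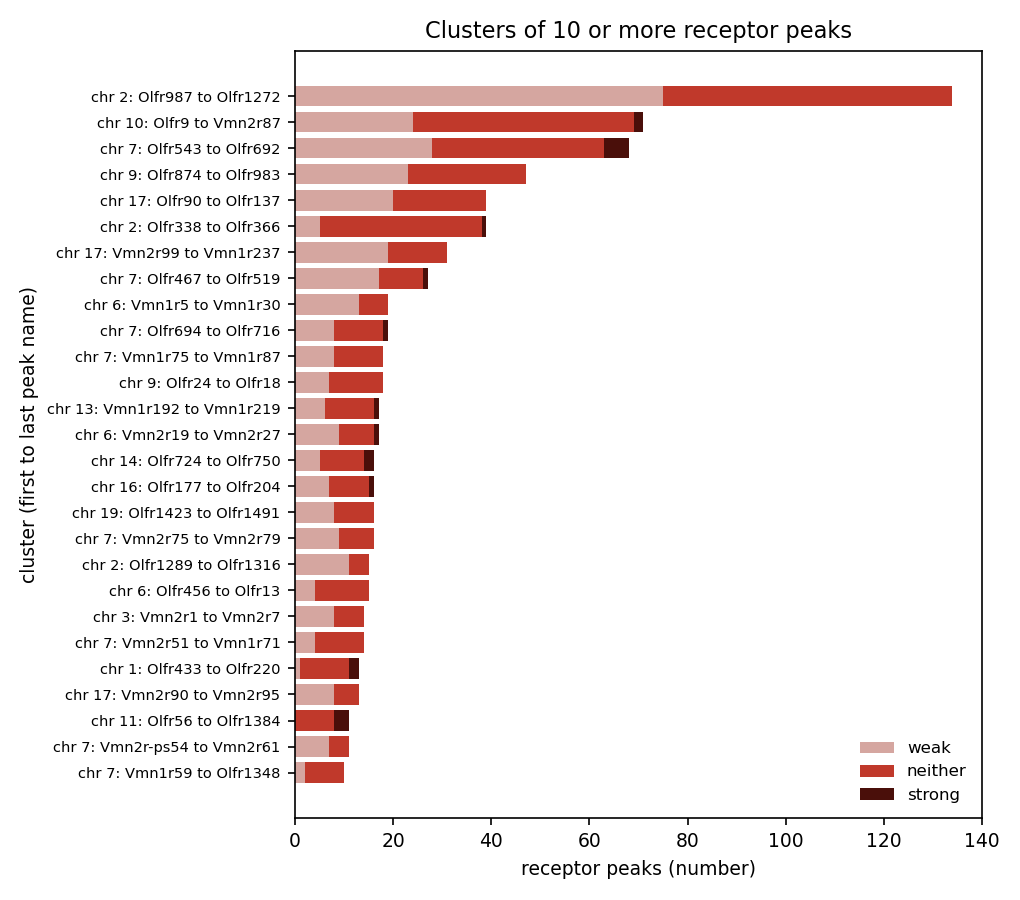
Number of receptor peaks (x axis) in each of the 27 clusters of 10 or more (y axis, chromosome with the names of the first and last peak), split into weak, neither and strong. The chromosome 2 cluster from Olfr987 to Olfr1272 is the largest with 134 receptor peaks, 75 of them weak and 0 strong.

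The largest cluster (chr2:85342051-90283500) held 134 Olfr peaks on 284 annotated receptor genes, of which 98 had a peak. Its receptor peaks ran from 4.49 to 6.66 in mean log2 with a median of 5.07, and 75 were weak. The second (chr10:128995501-130481250) held 61 Olfr and 10 Vmn2r peaks on 70 annotated genes and was the densest, at 94.9 peaks per Mb. Its receptor peaks ran from 4.31 to 6.97 with a median of 5.56, and 24 of 71 were weak. The third (chr7:102479251-105369450) held 68 Olfr peaks from 4.42 to 8.47 with a median of 5.37. Its 5 strong peaks included Olfr653 and Olfr622, the latter 169 kb from the start of the beta-globin gene Hbb-bt.

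The fourth (chr9:37745251-40092750) held 47 Olfr peaks from 4.65 to 6.69 with a median of 5.14. The fifth, from Olfr90 to Olfr137 (chr17:37083151-38305200), held 39 Olfr peaks from 4.36 to 6.59 with a median of 5.13, and neither had a strong receptor peak. A chromosome 2 cluster of equal size, from Olfr338 to Olfr366 (chr2:36372001-37220550), was stronger, with a median of 5.93 and only 5 of 39 weak. Over the 27 clusters the medians ran from 4.75 to 5.95.

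Vomeronasal clusters were weak as well. The largest, from Vmn2r99 to Vmn1r237 (chr17:19397701-21314550), held 12 Vmn1r and 19 Vmn2r peaks from 4.63 to 5.95, of which 19 were weak and 0 strong. The Vmn1r5 to Vmn1r30 cluster (chr6:56989651-58438800) held 19 Vmn1r peaks with a median of 4.83, of which 13 were weak. The Vmn1r192 to Vmn1r219 cluster (chr13:22186201-23163150) was stronger, with 17 peaks at a median of 5.72, of which 6 were weak and 1, that of Vmn1r198, strong. The Vmn1r198 peak had 7.35 in WT1, and its difference between KO and WT was -0.06 with a standard error of 0.354. All 8 peaks of Vmn2r120 formed a cluster of their own (chr17:57505201-57542250) with a median of 5.57.

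KO and WT were then compared. No receptor peak was called by limma at an adjusted p below 0.05, where the background over all 123510 peaks was 0.00%, that is 0 calls. By limma voom on recovered reads no receptor peak was called either, with 3 calls among all peaks. The paper reports sites of changed accessibility in small intestinal crypts by edgeR. The lack of calls by limma therefore does not show that accessibility was unchanged. At an unadjusted p below 0.05, 20 receptor peaks (2.37%) were lower in KO, against a background of 1.37% of all peaks and 1.70% of other named peaks of equal strength, and 3 (0.356%) were higher, against 0.909% and 1.56%. This split depended on the scaling. It was 17 lower and 11 higher after quantile normalization, 22 and 8 after centring each library, and 7 and 7 by voom. Without WT1 the split was 4 lower and 5 higher, without WT3 9 and 3, without KO2 25 and 14, and without WT2 39 and 4. Over all peaks the share, both directions together, was 3.12% after quantile normalization, 2.83% after centring and 2.39% by voom. It was 0.944% without WT1, 1.70% without WT3, 3.87% without KO2 and 4.56% without WT2.

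The groups did not overlap and KO was the lower in 43 receptor peaks (5.10%, against 4.10% of all peaks and 4.31% of other named peaks of equal strength). KO was the higher without overlap in 19 (2.25%, against 2.70% and 3.83%). The first share was near both backgrounds. The second was near that of all peaks and below that of other named peaks of equal strength, which was not tested.

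The median KO minus WT difference of receptor peaks was -0.07 on the deposited log2 scale and 0.02 by voom, so its sign turned with the scaling. In 506 of 843 receptor peaks (60.0%) the difference was below 0, against 53.1% of all peaks, and by voom in 47.1%. Without WT1 the median was -0.0083, without WT3 -0.0043 and without KO2 -0.01, whereas without WT2 it was -0.17 with 69.3% of receptor peaks below 0. Over all peaks the median moved as well. It was -0.02 on the deposited scale, 0.02 by voom, 0.0018 without WT1, 0.08 without WT3, 0.08 without KO2 and -0.14 without WT2. Other named peaks had a median of 0.01 on the deposited scale. Low values went with lower differences among other named peaks too, so equal strength matters. In the weakest 25% of the receptor peaks the median difference was -0.14, against -0.08 for other named peaks in the same range of strength, and in the strongest 25% -0.02 against 0.02.

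Taken at equal strength, receptor peaks had a median difference 0.05 lower than other named peaks (-0.05). Against peaks without a gene name of equal strength the offset was 0.0024, and the other peaks inside the 27 clusters had a median difference of -0.06 beside -0.07 for the receptor peaks there. The 3 families gave offsets of -0.06 (Olfr), -0.02 (Vmn1r) and -0.03 (Vmn2r) against other named peaks.

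Library by library, the receptor peaks' offset from other named peaks of equal strength was 0.10, -0.06 and -0.00056 in the WT libraries and -0.01, -0.06 and -0.02 in the KO libraries. The groups overlapped, with 0.0123 ± 0.0776 (SD, n = 3) in WT and -0.0290 ± 0.0277 in KO. WT1 alone was high, and without it the offset between KO and WT was -0.0087.

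The receptor peak with the smallest p was the Vmn2r92 peak printed above (ENSMUSG00000091350), which lies in an intron and is 97.3% repeat. Its log2 values were 5.43, 5.40 and 5.00 in WT and 4.29, 3.69 and 3.00 in KO, from 22, 23 and 32 reads against 9, 9 and 2. The groups did not overlap, and the difference was -1.62 with a standard error of 0.436 (limma, unadjusted p = 0.00216, adjusted p = 1.00). It did not pass the test, and it was one of the weakest receptor peaks, at a mean log2 of 4.47.

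The next were Olfr432 and Olfr421-ps1, which lie in 1 cluster on chromosome 1. The Olfr432 peak (chr1:174050401-174051300), over the coding exon, had 6.37, 6.40 and 6.63 in WT and 5.52, 6.01 and 5.58 in KO. Its difference was -0.76 with a standard error of 0.255 (limma, unadjusted p = 0.00936, adjusted p = 1.00). The Olfr421-ps1 peak (chr1:174151201-174152100), over the start of that pseudogene, had 6.14, 5.63 and 6.55 in WT and 5.37, 5.56 and 4.80 in KO. Its difference was -0.86 with a standard error of 0.300 (limma, unadjusted p = 0.0118, adjusted p = 1.00). In neither peak did the groups overlap.

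The remaining receptor peaks named for low p in KO were those 4790 bp beyond the 3′ end of Olfr820 (chr10:130023151-130023600, -0.79) and in Olfr140 (chr2:90058351-90058650, -1.05). Olfr820 had 5.56, 5.34 and 5.39 in WT and 4.58, 4.77 and 4.58 in KO. Olfr140 had 5.62, 4.58 and 5.04 in WT and 4.12, 3.98 and 4.00 in KO. In both the groups did not overlap, and neither passed the test (limma, adjusted p = 1.00).

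In the other direction, the peak 4081 bp before the start of Olfr519 (chr7:108898501-108899250) had 5.29, 5.13 and 5.61 in WT and 5.93, 6.04 and 6.00 in KO. The groups did not overlap, and the difference was 0.64 with a standard error of 0.25 (limma, unadjusted p = 0.0212, adjusted p = 1.00). An intronic Vmn2r111 peak (chr17:22562551-22563300) had 5.73, 4.79 and 5.21 in WT and 5.77, 6.16 and 5.90 in KO, a difference of 0.70 with a standard error of 0.285. Olfr378, Vmn2r66 and Olfr1448 followed with differences of 0.67, 0.70 and 0.58, of which only Vmn2r66 overlapped between groups. The Vmn2r66 difference was 0.41 without WT2 and 1.00 without WT3. None of the 5 passed the test.

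By cluster, the median KO minus WT difference of the receptor peaks ran from -0.31 to 0.12, and it was below 0 in 22 of the 27 clusters on the deposited scale. By voom it was below 0 in 13 of 27, after quantile normalization in 19 and after centring in 21. The count was 14 without WT3, 15 without KO2, 17 without WT1, 21 without KO1, 24 without WT2 and 25 without KO3, so it depended on the scaling and on single libraries. The median of all peaks moved too, at 0.08 without WT3 and without KO2, -0.14 without WT2 and -0.11 without KO3. In the largest cluster, on chromosome 2, the median of the receptor peaks was -0.13 with 87 of 134 peaks lower, and the other peaks there had -0.11. The offsets of its receptor peaks at equal strength were 0.12, -0.07 and 0.07 in WT and -0.07, -0.12 and 0.02 in KO, so the groups overlapped. The chromosome 10 cluster had the highest median, 0.12 with 41 of 71 peaks higher, while the other peaks there had -0.08. Its offsets were 0.04, -0.08 and -0.02 in WT and 0.18, -0.03 and -0.12 in KO, and only KO1 stood above the WT libraries.

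The clusters on chromosomes 7 (Olfr543 to Olfr692), 9 and 17 had medians of -0.10, -0.06 and -0.07, with 45 of 68, 29 of 47 and 24 of 39 receptor peaks lower. The other peaks inside them had -0.13, -0.02 and -0.08.

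**Figure D4:**
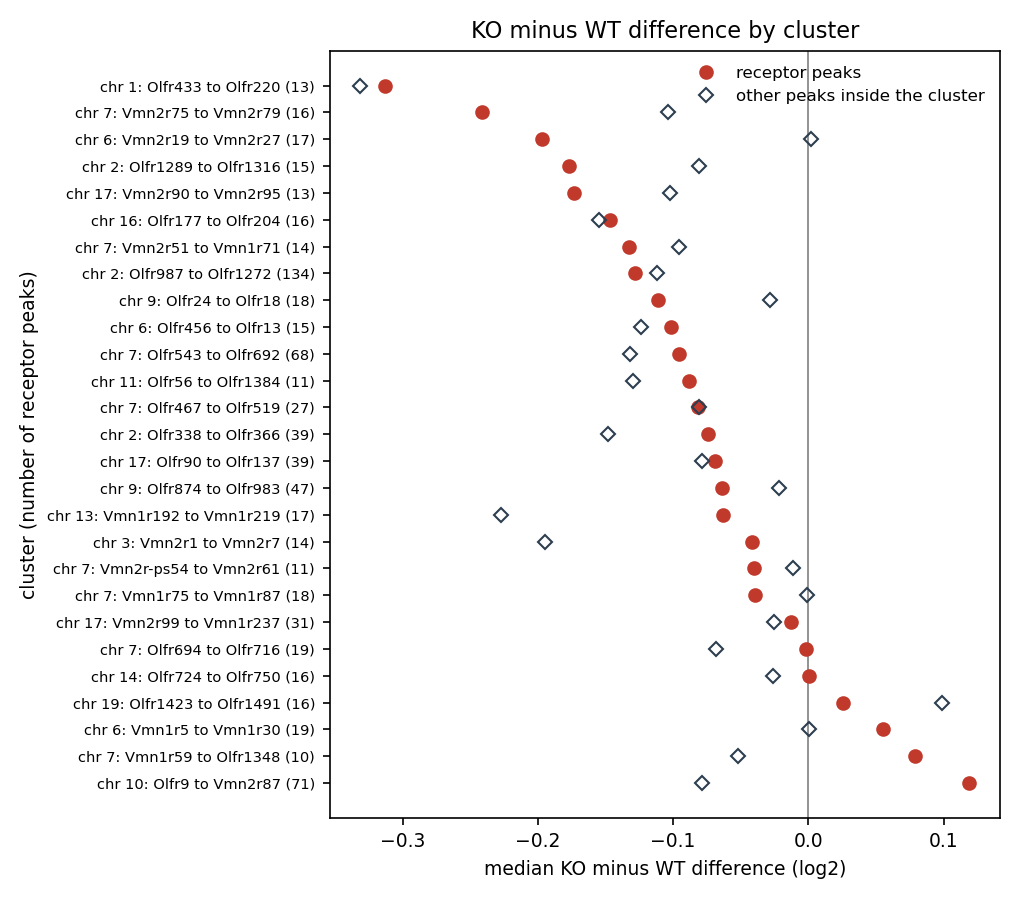
Median KO minus WT difference (x axis, log2) of the receptor peaks (filled circles) and of the other peaks (open diamonds) inside each of the 27 clusters (y axis, with the number of receptor peaks). The chromosome 1 cluster lies lowest in both kinds of peak, at -0.31 and -0.33.

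A single one of the 27 clusters had all its receptor peaks on one side. The choice followed from its values, so it is described with no test. Neighbouring peaks are not replicates of a condition. In the cluster from Olfr433 to Olfr220 (chr1:174040801-174449550) all 13 receptor peaks had a lower mean in KO, by 0.01 to 0.86 with a median of -0.31. The size of the median depended on single libraries, at -0.15 without WT1, -0.21 without WT3 and without KO1, -0.24 without KO2, -0.53 without WT2 and -0.50 without KO3. Over all peaks the median was 0.0018 without WT1, 0.08 without WT3, -0.02 without KO1, 0.08 without KO2, -0.14 without WT2 and -0.11 without KO3. The offsets of the 13 receptor peaks at equal strength were 0.30, -0.06 and 0.31 in WT and -0.34, -0.11 and -0.09 in KO. The groups did not overlap, although WT2 and KO3 were close. Without scaling to equal strength the medians overlapped, at 6.14, 5.63 and 6.11 in WT and 5.52, 5.73 and 5.90 in KO.

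Of the 13 peaks, 3 (Olfr432, Olfr424 and Olfr421-ps1) did not overlap between the groups, where 4.10% of all peaks lay lower in KO without overlap, and none was called (limma, adjusted p = 1.00). By voom 12 of 13 were lower. The count was 9 without WT3, 10 without KO2 and 12 or 13 without each of the others. The lower values were not confined to receptor genes. All 6 peaks named Spna1, the erythroid alpha spectrin gene that lies inside the cluster, were lower, with a median of -0.37, as were 10 of 13 peaks without a name. Without WT1 the Spna1 count was 5 of 6 with a median of -0.22, without WT3 5 of 6 with a median of -0.27, and without WT2 the median was -0.61. The count of peaks without a name was 7 of 13 without KO1 or without KO2, 8 without WT1 or without WT3, and 12 without WT2 or without KO3. In the 500 kb before the cluster 26 of 39 peaks were lower, with a median of -0.20, but without WT3 these were 19 of 39 with a median of 0.01 and without KO2 20 of 39 with a median of -0.0061. In the 500 kb after it 13 of 25 were lower, with a median of -0.03. The Olfr433 peak at the cluster's edge lies 8.99 kb from the start of Ifi205, an interferon-inducible gene of the neighbouring PYHIN family.

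**Figure D5:**
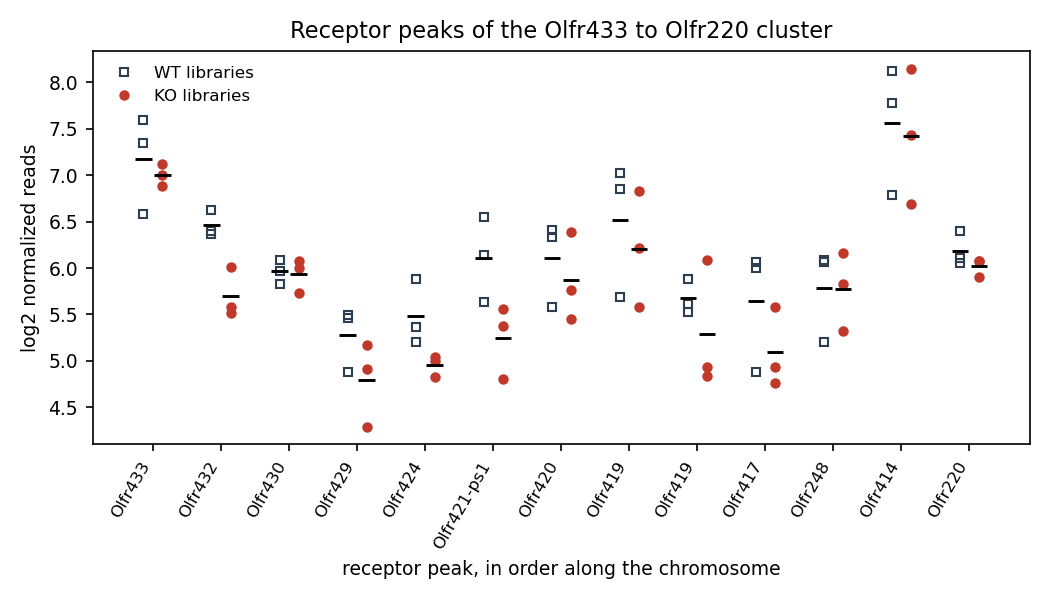
Deposited log2 normalized reads (y axis) of the 13 receptor peaks of the Olfr433 to Olfr220 cluster in the 3 WT (open squares) and 3 KO (filled circles) libraries, with a bar for each group mean. Every KO mean is below its WT mean, by 0.01 to 0.86, and the groups separate fully at Olfr432, Olfr424 and Olfr421-ps1.

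The genes that carry the signal of these receptors were examined from a list. Of 28 genes of olfactory and vomeronasal signalling and of receptor choice, 20 had a peak. The 8 without one were Cnga2 and Cnga4 (subunits of the olfactory cation channel), Omp (olfactory marker protein), Rtp1 and Rtp2 (which carry receptors to the cell surface), Stoml3, Emx2 and Gng13. Trpc2, the channel of vomeronasal neurons, had 1 peak at a log2 of 5.09 that was not at its start. The G protein gene Gnai2, the exchange factor gene Ric8b and the transcription factor gene Atf5 had peaks at their starts with log2 values of 9.63, 9.17 and 9.0. Of the 108 peaks of the list 37.0% were strong, close to other named peaks. None was called, and at an unadjusted p below 0.05 by limma 1 of 108 was higher and 0 lower in KO, near the 0.909% and 1.37% of all peaks.

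Among other chemoreceptors, the 15 peaks of bitter taste receptors (Tas2r) resembled the receptor peaks, with 0 strong and 8 weak. Trace amine receptors (Taar, olfactory receptors of another kind) had 11 peaks with 1 strong, that over the start of Taar9 at a log2 of 8.46. Formyl peptide receptors (Fpr, in part vomeronasal) had 11 peaks with 2 strong, both named for Fpr3, and the sweet and umami receptors (Tas1r) had 2 peaks, of which 0 were strong. None of these peaks was called. By limma 1 of them (Taar7d, 1.31) had an unadjusted p below 0.05 and was higher in KO, as were 0.909% of all peaks.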

How the data were processed

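ATAC-seq libraries of 50000 cells each, read as 50 bp pairs, came from small intestinal crypts (3 WT and 3 Smarcad1-KO), grouped by sample title. The authors trimmed reads with Trim Galore 0.4.1, mapped them to GRCm38 with Bowtie2 2.2.5, removed duplicates and low mapping quality, and called 1 set of MACS peaks in SeqMonk. They gave each peak the nearest gene name within 5 kb. The values the authors deposited are log2 read counts normalized to the largest library. A second table of the authors holds peaks with edgeR false discovery rates and was not used.

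All 123510 peaks were fitted with limma 3.58.1 (lmFit, eBayes with trend, two-sided, R 4.3.3) with Benjamini-Hochberg adjustment over all peaks, a test for log values. The labels do not say that libraries of a group came from separate mice, so p-values measure the spread between these libraries, which may be technical. Whole reads were recovered for 100% of values (within 0.02 of a read) and give the depth. PCR reads are not independent molecules.

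Receptor peaks were compared with other named peaks within bins of 0.25 of mean log2, without a test. Gene starts and exons came from GENCODE vM21, sequence and repeats from GRCm38.p6. Peaks named in the text are the 10 strongest, the 5 weakest, the 5 with the smallest p in each direction and the 5 largest clusters by range, plus those stated to be chosen otherwise. Members, lists and rules were chosen with earlier results of these data known. Alternatives were other scalings, voom, a minimum of 30 reads, a pseudocount of 5, a replicate block, each library left out, other thresholds, bins and distances.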

Additional observations from a re-analysis of the deposited data

How the results depend on the processing

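At an adjusted p below 0.05 no receptor peak was called in any alternative fit run. These were centring, quantile normalization, at least 30 reads, a pseudocount of 5, voom, the replicate block and each library left out. Calls over all 123510 peaks were few too. There were 2 after centring, 3 after quantile normalization, 3 by voom, 1 without WT3, 30 without KO2 and 272 with the block. The other fits had 0. At such rates the lack of calls is not particular to receptor peaks. In the main fit no receptor peak was called at thresholds of 0.01 or 0.1. With the replicate block the smallest adjusted p of a receptor peak, given below, lay under 0.1. At an unadjusted p below 0.05 the number was 23, and it was 2 of the 230 receptor peaks with at least 30 reads, 14 by voom, 15 among peaks that overlap their named gene and 44 with the replicate block (31 lower and 13 higher). Leaving out 1 library moved it between 9 (without WT1) and 43 (without WT2), and it was 12 without WT3 and 39 without KO2. The share of all peaks tested moved as well, from 2.28% to 1.30% with at least 30 reads, 2.39% by voom and 6.87% with the block. It was 0.944% without WT1, 4.56% without WT2, 1.70% without WT3 and 3.87% without KO2. The cause of these shifts was not tested, apart from the smaller numbers tested.

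Deviations of same-numbered libraries from their group means correlated at 0.04, 0.42 and 0.41. The labels do not say whether the numbers pair the samples, and these values do not settle it. Every library but WT1 correlated best with the library of its own number, a hint from the data and not the design, and WT1 did so with KO3. The block raised the calls over all peaks from 0 to 272. The smallest adjusted p of a receptor peak was then 0.0807.

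The offset of -0.05 from other named peaks of equal strength stayed below 0 under every alternative of scaling, bins, width, GC content or distance to a gene start. It turned to 0.0024 when peaks without a name were the comparator, and ran from -0.07 to -0.0087 without each library. These comparators, and matching on GC content or on width (-0.03), were chosen after seeing the data.

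The strong share was 0.474% and the weak share 19.1% for the top and bottom 10%, and the weak share was 38.7% per kb of width. In single libraries the strong share was 4.39%, 3.08% and 3.80% in WT and 4.15%, 3.91% and 3.80% in KO, and the weak share 44.5%, 48.0%, 45.1%, 42.7%, 47.6% and 46.5% in the same order. Clusters numbered 52 with a gap of 1 Mb and 163 with 100 kb. The share at a gene start was 4.03% inside the peak, 26.9% within 2 kb and 10.7% for receptor starts alone. Other named peaks came to 26.8% within 2 kb, so the lower share of receptor peaks held only at the shorter distances. Weak receptor peaks rest on few reads, a median of 10 in KO3.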
